A study of Mus musculus with 10 samples.

Results

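The hypodermal fibroblast and adipocyte genes described here are 8 of the 23080 genes in the deposited table. They are *Clec3b*, *Dpt*, *Pi16* and *Dpp4*, which mark fibroblasts of the loose tissue under the skin, and *Adipoq*, *Fabp4*, *Plin1* and *Cd36*, which mark fat cells and the cells that take up fatty acids. The members were found by their gene symbols. They were chosen by levels measured in these libraries, after *Clec3b* had been seen to be high in a single library, so the levels and likenesses below are descriptions of measured values and carry no test. RNA was sequenced from the anterior fontanelle (AF), the membrane between the frontal and parietal bones, of mouse embryos at E18.5, shortly before birth. The excised tissue held suture connective tissue and bone, and skin and brain were left out. The 5 control libraries are labelled WT and the study calls them littermates, without giving their alleles. The 5 mutant libraries are labelled Wnt1-Cre; Fgfr2fl/fl, that is, floxed alleles of the FGF receptor gene *Fgfr2* and a Cre recombinase driven in neural crest cells. Cells of other origin in the tissue are not targeted by this Cre. A legend of the study speaks of littermate pairs, but neither it nor the labels say which libraries form a pair or share a litter. The libraries were therefore compared unpaired. The p-values set the difference between groups against the spread between these libraries, which takes in any difference between litters.

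The hypodermis is the loose connective tissue that joins skin to the layers below it, and in the head it lies over the skull. Fibroblasts marked by *Pi16* and *Dpp4* are found in the connective tissue of many organs, line the septa and outer sheaths of vessels and nerves, and under the skin include the progenitors of fat cells. Fat cells arise from such progenitors under the control of the transcription factors PPARG and C/EBPα, and then make lipid droplet coats, fatty acid carriers and the hormone adiponectin. The study uses *Clec3b* as the marker of a hypodermal cluster in published single-cell data that it analysed again.

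Each library held 20774645 to 28515403 estimated counts over all genes (control median 24785694, mutant median 23594498), of which a ribosomal RNA gene took 18.6% to 33.5%. Levels are given as CPM, the counts of a gene scaled to a common library size and normalised by the trimmed mean of M-values (TMM). Libraries with the same label correlated with an r of 0.955 to 0.98 across tested genes. *Fgfr2*, the targeted gene, went against the labels. Its level was 176 to 235 CPM in the libraries labelled control and 273 to 357 CPM in those labelled mutant, a log2 fold change of 0.67 ± 0.09 (SE, n = 5 and 5, edgeR quasi-likelihood adjusted p = 0.0487). The groups did not overlap and the direction held in all 19 alternative fits (0.63 to 0.76), but the call was lost in 11 of them, as without mutant-labelled replicate 1 (0.71, adjusted p = 0.117), with adjusted p from 4.08e-10 to 0.427 over the 19. A count over the whole gene also takes in transcripts of a recombined allele, so it does not show whether the floxed exons were lost. The libraries are called control-labelled and mutant-labelled for this reason.

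All 8 members lay on known gene models of GRCm38, the mouse build of the table. The fibroblast genes were *Clec3b* at chr9:123150946-123157432, *Dpt* at chr1:164796644-164824266 and *Pi16* at chr17:29317680-29330593, all on the plus strand, and *Dpp4* at chr2:62330073-62412231 on the minus strand. The fat cell genes were *Adipoq* at chr16:23146536-23158028 on the plus strand, and *Fabp4* at chr3:10204088-10208576, *Plin1* at chr7:79720218-79732903 and *Cd36* at chr5:17781690-17888801 on the minus strand. Each is protein-coding, and the counts cover exons of the whole gene. *Dpp4* shares 232 exon bases with the antisense gene Gm13561 and *Pi16* shares 222 with a gene on the other strand. The strand setting of the counting is not given, so reads in those bases could belong to either gene.

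The 250 bases before the start sites of *Dpt*, *Dpp4* and *Adipoq* are shown because *Dpt* and *Dpp4* followed *Clec3b* across the libraries and *Adipoq* is the gene that defines fat cells among the members, although its few counts allow no likeness to be given. They are RefSeq windows on GRCm38.p6, written 5′ to 3′ on the strand of the gene, at chr1:164796413-164796662 (plus), chr2:62412232-62412481 (minus) and chr16:23146286-23146535 (plus). Capitals mark matches to the motifs named after them. The window of *Pi16* lies inside an exon of a longer annotated transcript and is not printed.
Dpt: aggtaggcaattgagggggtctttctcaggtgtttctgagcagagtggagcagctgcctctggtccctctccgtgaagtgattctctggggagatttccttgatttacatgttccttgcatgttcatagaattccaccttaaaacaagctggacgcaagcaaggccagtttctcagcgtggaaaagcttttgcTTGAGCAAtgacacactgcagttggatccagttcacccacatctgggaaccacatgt
Dpp4: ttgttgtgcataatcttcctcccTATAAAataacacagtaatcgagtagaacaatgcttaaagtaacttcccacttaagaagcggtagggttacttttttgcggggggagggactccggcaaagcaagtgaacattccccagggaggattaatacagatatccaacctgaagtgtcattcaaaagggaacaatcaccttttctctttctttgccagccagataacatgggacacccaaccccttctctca
Adipoq: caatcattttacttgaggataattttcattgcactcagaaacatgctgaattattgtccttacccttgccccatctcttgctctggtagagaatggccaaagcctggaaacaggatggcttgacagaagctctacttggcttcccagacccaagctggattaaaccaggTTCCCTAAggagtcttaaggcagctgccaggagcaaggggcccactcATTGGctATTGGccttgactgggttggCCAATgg
Of the 8 members, 6 had a window, and *Clec3b* and *Fabp4* were not among them. The windows were searched on both strands for motifs of 6 kinds of factor. The C/EBP motif, searched as TTNNGNAA, stood in 5 of the 6 windows and in 36.8% of 32851 windows of the same length. In *Dpt* it ran from base -57 to -50 before the start site, and in *Adipoq* from -81 to -74. *Adipoq* held the CCAAT box, whose letters are its name, at 3 places from -34 to -3, where 3 of 6 member windows and 33.8% of all windows held it at all. *Dpp4* had the TATA box, searched as TATAAA, at -227 to -222, and 12.4% of all windows held it. The AP-1 motif, searched as TGANTCA, was in 0 of 6 member windows and in 6.75% of all windows. The TCF/LEF motif, searched as CTTTGAT, was likewise in 0 of 6, against 3.21% of all windows. The half-site bound by nuclear receptors, searched as AGGTCA, was in 1 member window, that of *Cd36*, and in 14% of all windows. In *Pi16* the CCAAT box and the C/EBP motif overlapped. These are matches of letters in short windows and not binding sites. No searched motif was in both printed windows of fibroblast genes.

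Whether the library with the most *Clec3b* also held the most of the other genes was asked library by library. *Clec3b* encodes tetranectin, a secreted C-type lectin that binds plasminogen. Its level in control-labelled replicates 1 to 5 was 10.7, 13.8, 2.13, 8.22 and 7.35 CPM. In mutant-labelled replicates 1 to 5 it was 45.2, 3.10, 0.984, 4.17 and 1.5 CPM. Mutant-labelled replicate 1 stood 3.28-fold above the next library, control-labelled replicate 2, and 10.8-fold above the median of the other 9. The other 4 mutant-labelled libraries were below 4 of the 5 controls, and control-labelled replicate 3 lay among them. The 973 counts in mutant-labelled replicate 1 and the 23 in mutant-labelled replicate 3 bound the depth behind these values.

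*Pi16* encodes a peptidase inhibitor at the fibroblast surface and was measured by 49 to 1650 counts a library. Control-labelled replicates 1 to 5 held 19.6, 13.5, 4.25, 15.7 and 14.7 CPM. Mutant-labelled replicates 1 to 5 held 76.6, 7.83, 2.82, 7.83 and 2.16 CPM. The order was nearly that of *Clec3b*, with mutant-labelled replicate 1 at 3.91-fold over the next library, 4 controls after it, and control-labelled replicate 3 between the other mutant-labelled libraries.

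*Dpt* encodes dermatopontin, a small matrix protein that binds collagen and decorin. Control-labelled replicates 1 to 5 held 8.71, 15.7, 8.21, 14.5 and 7.99 CPM, and mutant-labelled replicates 1 to 5 held 36.1, 3.54, 2.35, 4.72 and 5.34 CPM. Mutant-labelled replicate 1 was again the highest, 2.29-fold over the next. Here the other 4 mutant-labelled libraries were all below all 5 controls, control-labelled replicate 3 included.

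*Dpp4* encodes CD26, a dipeptidyl peptidase of the cell surface. Control-labelled replicates 1 to 5 held 4.74, 4.42, 2.38, 4.09 and 3.68 CPM, and mutant-labelled replicates 1 to 5 held 22.5, 3.14, 3.94, 3.49 and 2.78 CPM. It had the widest gap of the fibroblast genes, with mutant-labelled replicate 1 at 4.74-fold over the next library. Among the other 9 libraries it varied little, with a coefficient of variation of 21.2%, where *Clec3b* had 77.8%, *Pi16* 63.8% and *Dpt* 58.7%.

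**Figure D1:**
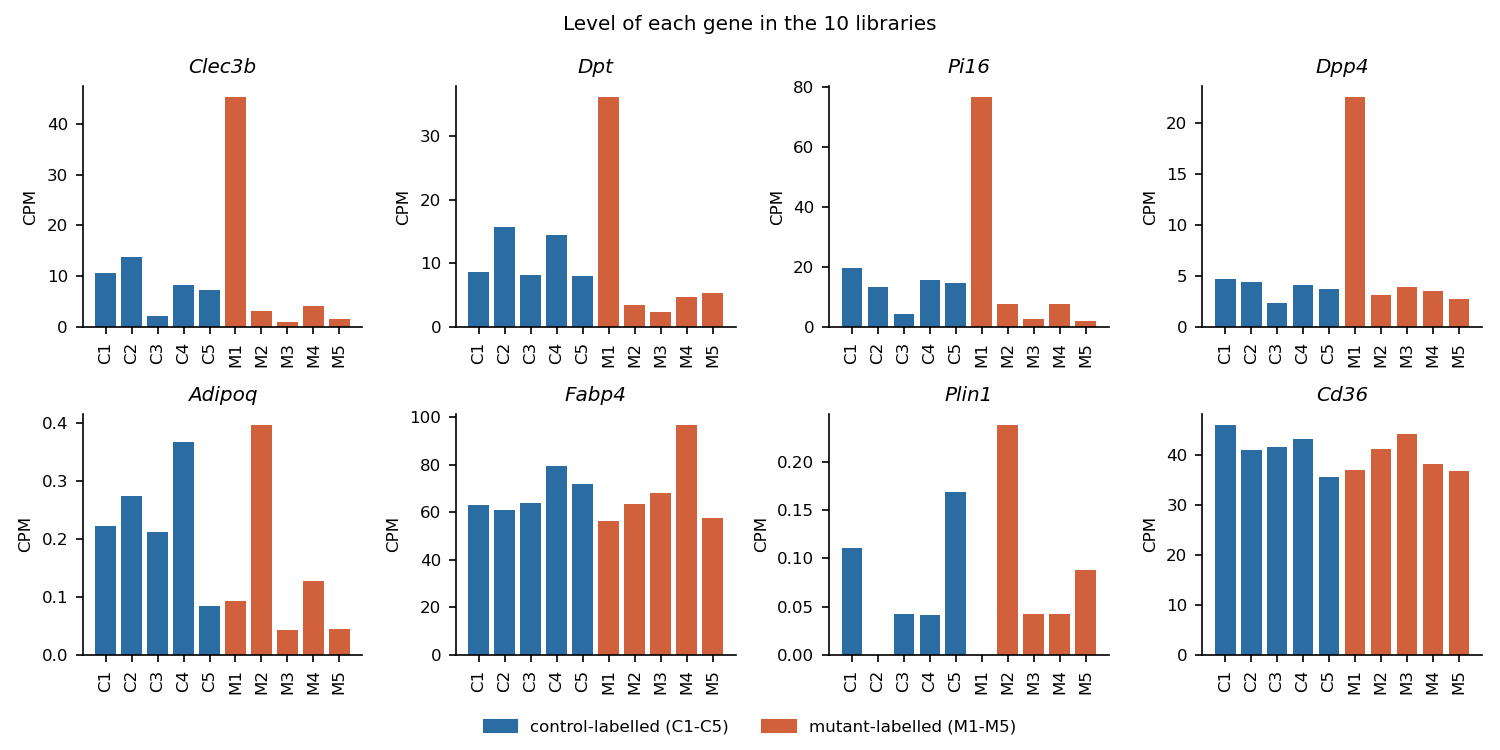
Level of each of the 8 genes in CPM (TMM-normalised) in the 5 control-labelled libraries (C1 to C5, blue) and the 5 mutant-labelled libraries (M1 to M5, red), with 1 bar per library and an axis of its own for each gene starting at 0. The bar of M1 towers over the others for *Clec3b*, *Dpt*, *Pi16* and *Dpp4*, at 22.5 to 76.6 CPM, and does not for the 4 fat cell genes.

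The fat cell genes were not high in that library. *Adipoq* encodes adiponectin, the hormone that defines fat cells, and was near the limit of detection. It had 6, 8, 5, 9 and 2 counts in control-labelled replicates 1 to 5 and 2, 10, 1, 3 and 1 counts in mutant-labelled replicates 1 to 5, which sum to 47 counts in 10 libraries. Its 2 counts in mutant-labelled replicate 1 were under the 3 counts taken as the floor of a library, which equal 0.139 CPM there. *Plin1*, the perilipin that coats the lipid droplet of fat cells, had 19 counts in all. These were 3, 0, 1, 1 and 4 in the control-labelled and 0, 6, 1, 1 and 2 in the mutant-labelled libraries, so that the library high in *Clec3b* had none. Neither gene passed the filter on low counts, and at this depth no difference between libraries could be shown for them.

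*Fabp4* and *Cd36* were well measured, and neither is made by fat cells alone. *Fabp4* encodes a carrier of fatty acids that capillary endothelium and macrophages also make. Its level was 63.1, 61.0, 64.0, 79.6 and 72.0 CPM in control-labelled replicates 1 to 5, and 56.5, 63.6, 68.3, 96.7 and 57.8 CPM in mutant-labelled replicates 1 to 5. The library highest in *Clec3b* was the lowest of the 10 in *Fabp4*, at 56.5 CPM next to 57.8 CPM in mutant-labelled replicate 5. *Cd36*, a scavenger receptor for fatty acids on fat cells, capillaries, macrophages and muscle, held 45.9, 40.9, 41.5, 43.1 and 35.6 CPM in the control-labelled and 37.0, 41.2, 44.1, 38.1 and 36.7 CPM in the mutant-labelled libraries. Its coefficient of variation over the 9 libraries without mutant-labelled replicate 1 was 8.44%, and mutant-labelled replicate 1 was the 8th of 10.

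Per kilobase of coding-transcript exon, a scale on which genes can be set beside each other, the median level over the 10 libraries fell from *Fabp4* at 71.2 CPM per kb through *Cd36* at 11.4, *Clec3b* at 5.81, *Dpt* at 4.70, *Pi16* at 1.88 and *Dpp4* at 0.723 to *Adipoq* at 0.123 and *Plin1* at 0.00918. The ranges of *Clec3b* (0.992 to 45.6), *Dpt* (1.36 to 20.9) and *Pi16* (0.381 to 13.5) overlapped. *Pi16* was nevertheless below both others in 10 of 10 libraries, while *Clec3b* was below *Dpt* in 4 of 10. The ranges of *Adipoq* and *Plin1* lay below those of the other 6 genes in all libraries.

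Of the 7 other members, 3 were thus highest in the library highest in *Clec3b*, and these were the 3 fibroblast genes. Of all 16267 tested genes, 10.3% were highest in mutant-labelled replicate 1. At a fold of 2 the share was smaller, with 43 genes (0.264%) at least that far above every other library, and 4 of these 43 were the 4 fibroblast members. As the list was made from levels in this library, nothing is read from that share.

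**Figure D2:**
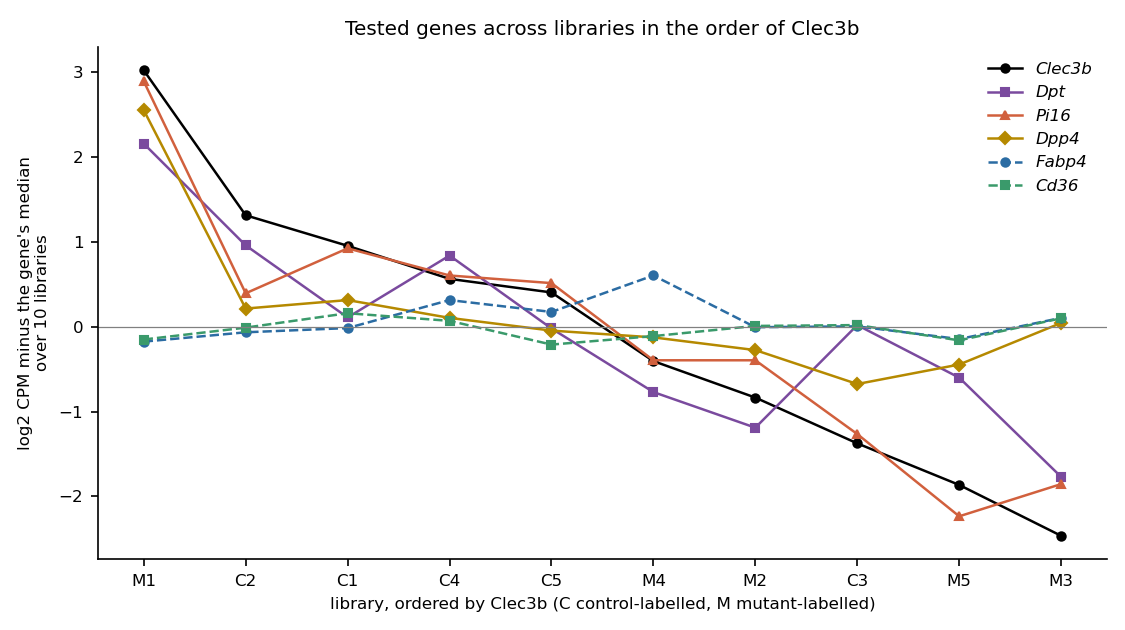
Log2 CPM of the 6 tested members minus the median of each gene over the 10 libraries, with the libraries ordered from the highest to the lowest *Clec3b* on the horizontal axis (C control-labelled, M mutant-labelled). The lines of *Dpt*, *Pi16* and *Dpp4* (solid) start high at M1 with *Clec3b*, while those of *Fabp4* and *Cd36* (dashed) stay near 0 throughout.

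The likeness between genes was measured as the correlation of log2 CPM over the 10 libraries, which share depth and composition. Pearson's r with *Clec3b* was 0.97 for *Pi16*, 0.89 for *Dpt* and 0.78 for *Dpp4* (Spearman's rho 0.92, 0.85 and 0.79). It was -0.16 for *Fabp4* and -0.17 for *Cd36* (rho -0.28 and -0.09), against a median of -0.01 over all tested genes. An r at or above that of *Dpp4* was found for 73 of 16266 genes (0.449%). Where mutant-labelled replicate 1 was left out, r with *Clec3b* over 9 libraries was 0.94 for *Pi16*, 0.80 for *Dpt*, 0.64 for *Dpp4*, 0.12 for *Fabp4* and 0.06 for *Cd36* (0.055). Without the libraries farthest from the median of *Clec3b*, which were mutant-labelled replicates 1 and 3, it was 0.93, 0.68 and 0.93 for the fibroblast genes in that order, and it turned to 0.15 for *Fabp4* and 0.39 for *Cd36*. Within genotype, with each group's mean taken away, it was 0.97, 0.88 and 0.90 for the fibroblast genes, and -0.17 and -0.28 for *Fabp4* and *Cd36*. Among the fibroblast genes themselves, r was 0.81 between *Dpt* and *Pi16*, 0.82 between *Pi16* and *Dpp4* and 0.70 between *Dpt* and *Dpp4*. Without mutant-labelled replicate 1 these were 0.64, 0.67 and 0.28, and the last was below the 0.40 between *Dpp4* and *Cd36*. The r between *Fabp4* and *Cd36* was 0.0016, and -0.16 without that library.

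**Figure D3:**
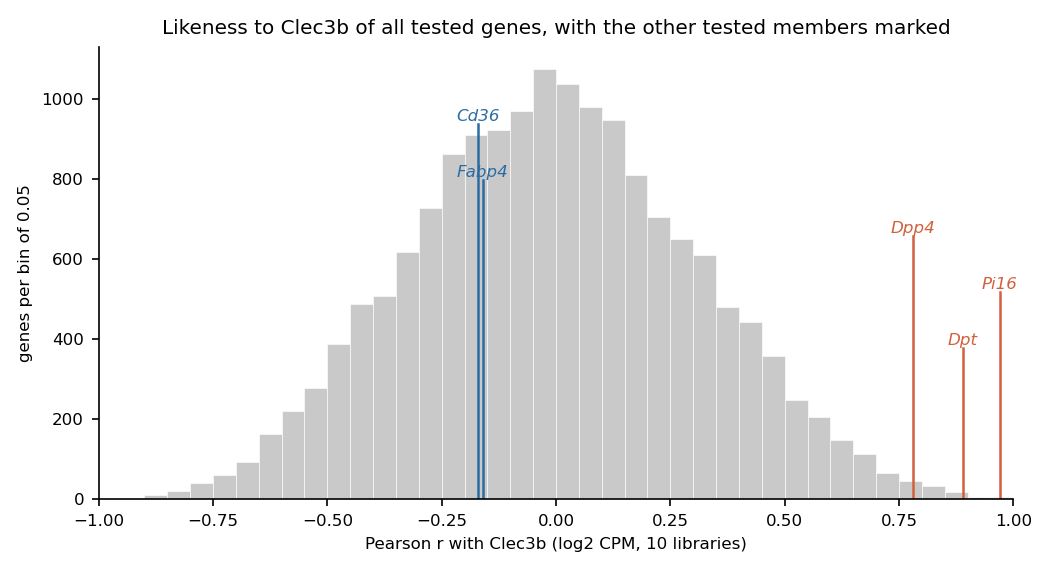
Histogram of Pearson's r with *Clec3b* over the 10 libraries for all tested genes (grey, genes per bin of 0.05), with vertical lines at the other tested members. *Dpp4* (0.78), *Dpt* (0.89) and *Pi16* (0.97) stand at the right edge of the distribution and *Fabp4* and *Cd36* left of its centre, and the height of a line has no meaning.

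The tested genes most like *Clec3b*, outside the members and with a mean of at least 1 CPM, were *Wnt2*, *Col6a6*, *Efhd1*, *Aldh1a3*, *Tnxb*, *Mfap5*, *Osr2*, *Col5a3*, *Ntn1* and *Dlk1* (r = 0.96 to 0.89). All 10 were highest in mutant-labelled replicate 1, and their r without that library was 0.83 to 0.95. Several encode matrix proteins. *Tnxb*, the matrix protein tenascin-X, was at 184 CPM there and at 10.5 to 52.4 CPM in the other 9 libraries (median 13.5). *Col6a6*, a collagen VI chain, was at 66.6 CPM against 2.70 to 19.0. *Mfap5*, a protein of elastic microfibrils, was at 43.9 CPM against 5.03 to 16.3. The list also held regulators and signals. *Wnt2*, a secreted WNT ligand, was at 15.5 CPM against 1.72 to 5.18 in the other 9 libraries. *Dlk1*, a membrane protein that holds back fat cell differentiation, was at 411 CPM against 120 to 228. *Mfap5*, *Efhd1* and *Wnt2* were also on the fibroblast list described below.

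None of these genes was among the 10 most like *Fabp4*, which were *Btrc*, Gm4617, *Hars*, *Tomm6*, *Ndufb7*, *Sod1*, *Uqcr11*, *Gins4*, *Ythdc1* and *Pqbp1* (r = 0.97 to 0.92). *Ndufb7* and *Uqcr11* are subunits of the respiratory chain, *Tomm6* belongs to the import pore of the outer mitochondrial membrane and *Sod1* is a superoxide dismutase. All 10 were highest in mutant-labelled replicate 4, which had the highest *Fabp4*. That library also had the lowest share of ribosomal RNA counts (18.6%, against 20.8% to 33.5% in the others) and the largest TMM factor (1.13). Mutant-labelled replicates 1 and 5, lowest in *Fabp4*, had the highest shares (33.2% and 33.5%). Mutant-labelled replicate 3 had nearly the same share (33%) and was 4th of 10 in *Fabp4*, at 68.3 CPM. The part of ribosomal RNA and of scaling in the levels was not tested. *Sod1* ran from 69.2 to 93.9 CPM over the 10 libraries and Gm4617 more widely, from 14.5 to 66.1 CPM.

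Between genotypes, 0 of the 6 tested members passed an adjusted p of 0.05 over all 10 libraries (edgeR quasi-likelihood test, Benjamini-Hochberg over 16267 genes). The background was as low, with 3 of 16267 genes called (0.0184%), which were *Fgfr2*, *H2az2* and *Scube2*. At an unadjusted p under 0.05 there were 1219 genes, and DESeq2 called 97 after adjustment. *Clec3b* had a mean of 8.45 ± 4.33 CPM in the control-labelled and 11 ± 19.2 CPM in the mutant-labelled libraries (SD, n = 5 each). The log2 fold change was 0.37 ± 0.91 (SE, adjusted p = 0.953). *Pi16* had 0.51 ± 0.84 (adjusted p = 0.925), *Dpp4* 0.88 ± 0.56 (adjusted p = 0.742) and *Dpt* -0.09 ± 0.65 (adjusted p = 0.983). The direction of *Clec3b* and *Pi16* turned over these same 10 libraries with limma voom and quality weights, which gave -1.11 and -0.91, and with the replicate number as a block, which gave -0.88 and -0.57. The SD of the mutant-labelled group exceeded its mean for all 4 genes. *Fabp4* (0.01 ± 0.14, adjusted p = 0.989) and *Cd36* (-0.07 ± 0.08, adjusted p = 0.862) had small errors, and their means were 68.0 ± 7.72 against 68.6 ± 16.4 CPM and 41.4 ± 3.79 against 39.4 ± 3.19 CPM.

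Leaving out mutant-labelled replicate 1 turned the direction of *Clec3b*, *Pi16* and *Dpp4* and widened that of *Dpt*. The means of the other 4 mutant-labelled libraries were 2.44 ± 1.46 CPM for *Clec3b*, 5.16 ± 3.09 for *Pi16*, 3.99 ± 1.32 for *Dpt* and 3.34 ± 0.49 for *Dpp4* (SD, n = 4). The log2 fold change was then -1.78 ± 0.52 for *Clec3b* (adjusted p = 0.533), -1.38 ± 0.47 for *Pi16* (adjusted p = 0.588), -1.46 ± 0.29 for *Dpt* (adjusted p = 0.314) and -0.20 ± 0.20 for *Dpp4* (adjusted p = 0.841). None passed in edgeR's quasi-likelihood test, in which 1 of 16496 genes was called (0.00606%) and 1267 (7.68%) had an unadjusted p under 0.05. The unadjusted p was 0.00587 for *Clec3b*, 0.000383 for *Dpt* and 0.0137 for *Pi16*. DESeq2, added after the data were seen, called 67 genes of this set of libraries and *Dpt* among them (adjusted p = 0.000544). *Dpt* was the only member whose groups did not overlap, with 7.99 to 15.7 CPM in the controls and 2.35 to 5.34 CPM in the 4 mutant-labelled libraries. Of all genes, 190 (1.15%) had these 4 libraries below every control. The library was left out because of its levels of these same genes, so the values without it describe the other 9 and do not replace the comparison of all 10. In bulk tissue, fewer cells of a type and less RNA per cell cannot be told apart.

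**Figure D4:**
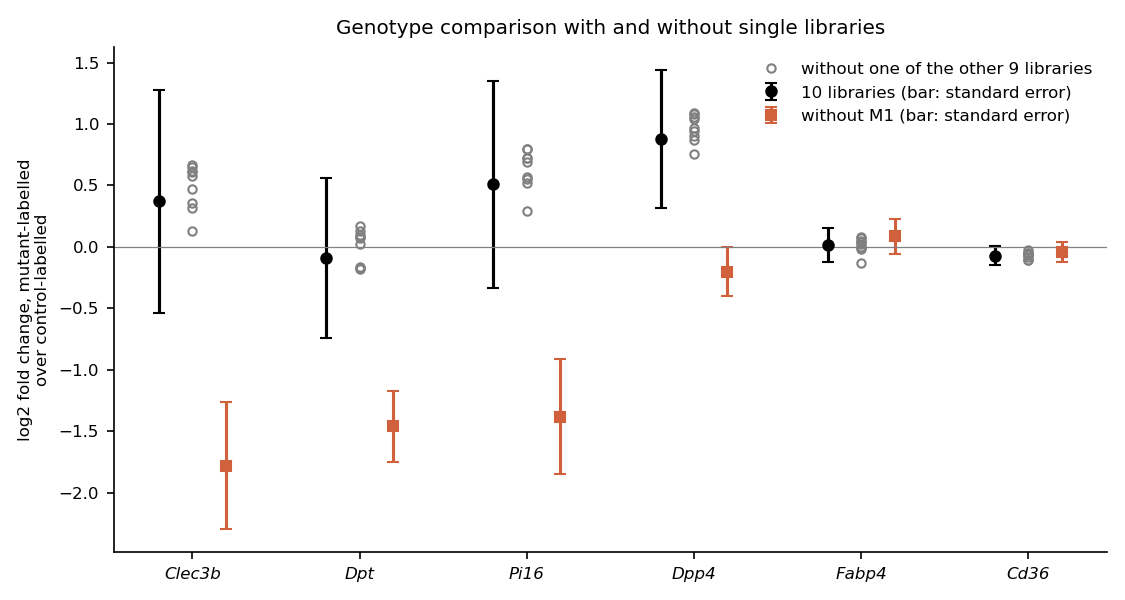
Log2 fold change, mutant-labelled over control-labelled, of the 6 tested members over all 10 libraries (black, bars of 1 SE), without mutant-labelled replicate 1 (M1, red squares, bars of 1 SE) and without each of the other 9 libraries in turn (open circles). For *Clec3b*, *Pi16* and *Dpp4* the open circles stay above 0 and the red square lies below it, while *Fabp4* and *Cd36* stay between -0.13 and 0.09.

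Other genes of hypodermal and universal fibroblasts were taken from a list of 23 without the members, chosen with earlier results of these data known. All 23 were tested, 0 passed between genotypes, and their median log2 fold change was 0.09, against 0.00 (0.00073) over all tested genes. The list was highest in mutant-labelled replicate 1 for 15 of its 23 genes, where 10.3% of all tested genes were highest. It summed to 1922.7 CPM in that library and to 1005.5 to 1351 CPM in the other 9. Its most abundant gene was *Fbn1*, encoding the microfibril protein fibrillin-1, at 681 CPM against 254 to 343. *Fndc1*, a fibronectin-domain protein, was at 307 CPM against 147 to 242, and *Gpx3*, a secreted glutathione peroxidase, was 8th of 10 at 156 CPM. The median r of the list with *Clec3b* was 0.67, and 8 of its genes were at or above the r of *Dpp4*. Without mutant-labelled replicate 1, 18 of the 23 were lower in the mutant-labelled libraries with a median of -0.16, 8 had an unadjusted p under 0.05, and again 0 passed.

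Of 15 genes of fat cell progenitors, all tested, 4 were highest in mutant-labelled replicate 1. The list summed to 1168.7 CPM there and to 726 to 987 CPM in the others, and *Dlk1* was 411 CPM of that sum. The receptors *Pdgfra* (231 CPM, 4th of 10) and *Pdgfrb* (199 CPM, 6th of 10), which many mesenchymal cells carry, did not stand out.

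The fat cell list of 33 genes had 28 in the table and 21 tested, of which 0 passed between genotypes (median log2 fold change 0.02) and 3 were highest in mutant-labelled replicate 1. Its sum was 1145.3 CPM in that library, 5th of 10, in a range of 1036.1 to 1265.2 CPM, of which *Mest* was 700 CPM. By mean log2 CPM it stood near the top of the libraries, at 3.60 in a range of 3.45 to 3.62. Its median r with *Clec3b* was 0.03. *Cebpa* and *Pparg*, which encode the regulators of the fat cell programme, were at 12.2 ± 1.67 against 13 ± 1.19 CPM and at 3.87 ± 0.42 against 4.08 ± 0.44 CPM (control-labelled against mutant-labelled, SD, n = 5 each). *Cebpa* was highest in mutant-labelled replicate 1 at 14.2 CPM, next to 13.8 CPM in the library after it, and *Pparg* was 5th of 10. The list was led by *Mest* (588 to 815 CPM), the fatty acid synthase gene *Fasn* (117 to 176 CPM) and the lipoprotein lipase gene *Lpl* (45.2 to 67.0 CPM), all of which other tissues make. Other tested genes of the list include the hormone-sensitive lipase gene *Lipe* (4.9 to 8.16 CPM), the insulin-responsive glucose transporter gene *Slc2a4* (4.68 to 7.68 CPM) and the glycerol channel gene *Aqp7* (0.296 to 1.24 CPM), and the lowest mean of the 21 was 0.54 CPM (*Thrsp*). The 7 genes of the list that were in the table and failed the filter on low counts were low by that choice. *Plin5* had at most 3 counts in a library, *Adrb3* 4, *Ucp1* 5, *Acvr1c* 10, *Tshr* 14, *Cidea* 20 and *Plin4* 22. *Cidec*, *Cfd*, *Retn*, *Lep* and *Pck1*, the other 5, were not analysed here.

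Markers of the other cells that could carry these transcripts were set beside them. The endothelial list (16 tested, 0 called) summed to 902 to 1107.3 CPM and was 6th of 10 in mutant-labelled replicate 1, with *Cdh5*, the cadherin of endothelial junctions, at 195 ± 25.8 and 194 ± 19.2 CPM. The list of capillary lipid uptake (6 tested) had its lowest sum in that library, at 158 CPM against 163 to 197 in the controls, of which the water channel gene *Aqp1* was 100 CPM. By mean log2 CPM the list was not lowest there (3.70, in a range of 3.55 to 3.91). The macrophage list (12 tested) was 3rd of 10 at 603 CPM, and the mannose receptor gene *Mrc1* was highest there at 98.4 CPM against 55.9 to 84.5. Pericyte and smooth muscle genes were highest in mutant-labelled replicate 1 for 6 of 10, with a sum of 683 CPM against at most 596.

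Skeletal muscle genes were high in the library highest in the fibroblast genes and in 1 other. Their 13 tested members summed to 1133.5 CPM in mutant-labelled replicate 1 and to 1098.7 CPM in control-labelled replicate 2. These were the libraries highest and next highest in *Clec3b* and in *Dpt*. The other 8 held 32.2 to 231 CPM of muscle genes. Control-labelled replicate 2 was 5th of 10 in *Pi16* and 3rd in *Dpp4*. Control-labelled replicate 1, at 34.5 CPM on the muscle list, was 2nd in both of these genes. The fetal myosin gene *Myh8* was at 235 CPM in mutant-labelled replicate 1, and the actin gene *Acta1* had 235 CPM at its highest. The median r of the muscle list with *Clec3b* was 0.49 over 10 libraries and 0.22 without mutant-labelled replicate 1, and 0 of its genes reached the r of *Dpp4*. Genes of skin epithelium did not stand out in mutant-labelled replicate 1. The epidermal list (10 tested) summed to 28.8 CPM there, 4th of 10, in a range of 19.3 to 42.7 CPM. Its most abundant genes were *Epcam* (3.64 to 12.6 CPM), *Perp* (4.3 to 9.45 CPM) and *Cdh1* (2.26 to 8.59 CPM). The basal keratin gene *Krt14*, with at most 16 counts in a library, failed the filter on low counts. The part of muscle in the levels of the fibroblast genes was not tested.

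**Figure D5:**
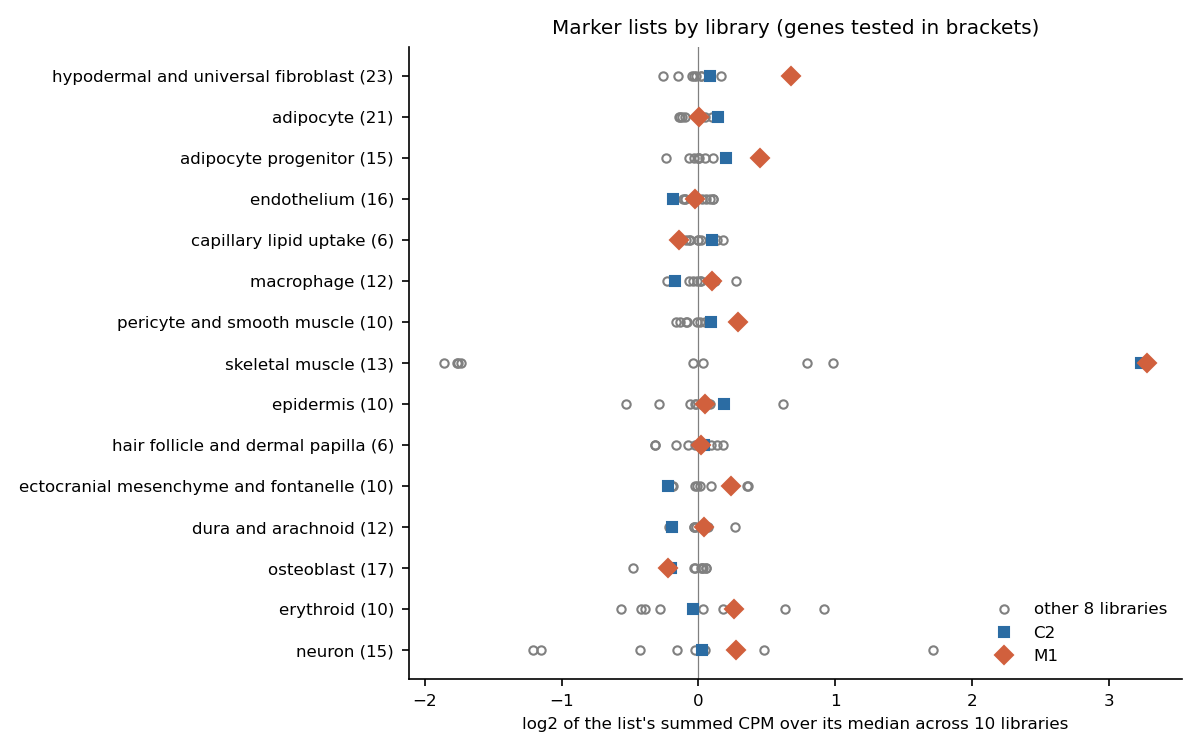
Summed CPM of each of 15 marker lists in each library over the list's median across the 10 libraries, on a log2 axis, with mutant-labelled replicate 1 (M1, red diamond), control-labelled replicate 2 (C2, blue square) and the other 8 libraries (open circles), and the number of tested genes in brackets. M1 stands apart on the fibroblast list and, together with C2, on the skeletal muscle list, and sits among the others on the fat cell, endothelial and epidermal lists.

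The tissue itself was bone-forming in every library. The osteoblast list (17 tested) summed to 83037.6 to 120154.9 CPM, with *Col1a1*, the main collagen chain of bone, at 48579.7 to 71267.9 CPM, and mutant-labelled replicate 1 was 9th of 10 at 99068.6 CPM. All 17 osteoblast genes had a fitted value below 0 (median log2 fold change -0.24), 10 had an unadjusted p under 0.05 and 0 passed after adjustment. In the same edgeR quasi-likelihood test, 1219 of all 16267 tested genes had an unadjusted p under 0.05, and their median log2 fold change over all tested genes was 0.00073. The list of ectocranial mesenchyme and fontanelle summed to 1027.2 CPM in mutant-labelled replicate 1, 3rd of 10, but by mean log2 CPM that library was highest (5.57, against 4.73 to 5.44 in the others), and 4 of its 10 genes were highest there. Of these 10 genes, 9 had a fitted value above 0 (median log2 fold change 0.36), 7 had an unadjusted p under 0.05 and 0 passed after adjustment in edgeR's quasi-likelihood test. The neuron list had 15 of 15 above 0 (median 0.80), with 3 at an unadjusted p under 0.05 and 0 passing after adjustment. It summed to 767 CPM in mutant-labelled replicate 2, 105 to 326 CPM in the other 4 mutant-labelled and 101 to 241 CPM in the control-labelled libraries. Without mutant-labelled replicate 2, 10 of 15 were above 0 and the median was 0.11. By summed CPM mutant-labelled replicate 1 was 3rd of 10 on the dura and arachnoid, erythroid and neuron lists. It was 5th on the list of hair follicle and dermal papilla, and 0 genes of these lists passed between genotypes.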

How the data were processed

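The AF region of E18.5 embryos was excised by the authors, and RNA was made into stranded libraries (Kapa) and read as single 50-base reads. The authors deposited 1 table of estimated counts per gene and library, not scaled between libraries, in which 66.4% of the values were whole. The submitters' processing notes name Partek and mm10. The aligner, counter and strand setting are not given in the sources used here. Start and end were those of GENCODE M21 for 22296 of the 22533 symbols it shares with the table.

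Estimated counts were rounded, since the design had assumed whole counts. Libraries were matched to columns by name. In R 4.3.3, edgeR 4.0.16 kept 16267 genes by filterByExpr (6813 not tested), scaled by TMM (factors 0.9 to 1.13) and tested 5 mutant-labelled against 5 control-labelled libraries by the quasi-likelihood test with no covariate. P-values were adjusted by Benjamini-Hochberg over the tested genes (threshold 0.05). SE is the fold change over the square root of F. Log2 CPM used a prior count of 0.5. Alternatives used limma 3.58.1, DESeq2 1.42.0, other scalings and filters, and the libraries left out in turn. The fit was tested on simulated data with known changes.

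Members, gene lists and tests were chosen with earlier results of these data known. Named genes are the members, the 10 tested genes of at least 1 CPM most like *Clec3b* and *Fabp4* (*Adipoq* was not tested), the 3 most abundant of each list, list genes with an adjusted p under 0.05, *Pparg*, *Cebpa* and *Fgfr2*. Other genes were named after their values were seen. Counts per library give counting error only, and a gene of a few CPM rests on few counts.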

Additional observations from a re-analysis of the deposited data

Results flagged for a closer look

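In groups of 5 libraries, the highest or lowest was compared with its neighbour by Dixon's ratio of gap to range (critical value 0.71). Over 46 groups there were 10 such cases, 6 of them in mutant-labelled replicate 1. Chance gives about 1 in 20 in groups not chosen for their values. The members were chosen after *Clec3b* had been seen to be high in this library, and the fibroblast list with earlier results known. The number of cases is therefore not read against that rate. In mutant-labelled replicate 1 *Clec3b* was at 45.2 CPM (next in the group 4.17), *Dpt* at 36.1 CPM (5.34), *Pi16* at 76.6 CPM (7.83) and *Dpp4* at 22.5 CPM (3.94). The fibroblast list summed to 1922.7 CPM there (next 1222.7) and the skeletal muscle list to 1133.5 CPM (next 203). Among the control-labelled libraries, replicate 2 stood apart in the skeletal muscle list, at 1098.7 CPM (next 231), and at the low end of the osteoblast list, at 100556.1 CPM (next 113193.5). *Adipoq* was 0.397 CPM in mutant-labelled replicate 2 (next 0.128), which rests on 10 counts. The dura and arachnoid list summed to 902 CPM in mutant-labelled replicate 3 (next 771). No cause was tested for any of these values.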

How the results depend on the processing

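*Cd36* kept its direction in all 19 alternatives, and no tested member with an adjusted p passed the threshold in any of them except *Dpt* with DESeq2 without mutant-labelled replicate 1 (log2 fold change -1.46, adjusted p = 0.000544), an alternative added after seeing the data, as was limma voom without that library. DESeq2 over all 10 libraries gave no adjusted p for *Pi16* and *Dpp4*. In these alternatives the adjusted p of *Clec3b* ran from 0.213 to 0.991 and that of *Dpt* from 0.000544 to 0.997. Where libraries were left out in turn, the log2 fold change ran from -1.78 to 0.67 for *Clec3b*, -1.46 to 0.17 for *Dpt*, -1.38 to 0.80 for *Pi16*, -0.20 to 1.09 for *Dpp4* and -0.13 to 0.09 (0.086) for *Fabp4*, with the lowest value without mutant-labelled replicate 1 except for *Fabp4*, lowest without mutant-labelled replicate 4. Limma voom with quality weights gave -1.11 for *Clec3b*, -0.91 for *Pi16*, -0.83 for *Dpt*, 0.32 for *Dpp4* and -0.05 (-0.053) for *Fabp4*. Without mutant-labelled replicate 1, voom gave -1.92, -1.69 and -0.20 for *Clec3b*, *Pi16* and *Dpp4*, and DESeq2 gave -1.79, -1.39 and -0.21. Library size alone gave -0.0043 for *Fabp4*. The cause of these turns of sign was not tested.

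The count of genes called, 3, became 1 with library size alone, 97 with DESeq2, 67 with DESeq2 without mutant-labelled replicate 1, where 1 member was called, and 1 to 6 with a library left out (6 without mutant-labelled replicate 2). The members highest in the library highest in *Clec3b*, 3 of 7, were 1 to 3 with a library left out, 1 without mutant-labelled replicate 1. The members with an r with *Clec3b* above 0.5 were 3 of 5 in all 16 alternatives. With no filter on low counts, *Adipoq* had a log2 fold change of -0.69 (edgeR adjusted p = 0.872) and *Plin1* of 0.22 (adjusted p = 0.98) over 23080 genes, from 47 and 19 counts.

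The study's legend speaks of littermate pairs without naming them. The deviations of same-numbered libraries correlated at -0.20, 0.14, -0.21, 0.03 and -0.14, and 0 of 10 libraries correlated best with its own number. These correlations cannot show whether same-numbered libraries share a litter, since littermates can also differ from each other. With the replicate block, 1 gene and 0 members were called, and the log2 fold changes were -0.88 for *Clec3b*, -0.57 for *Pi16*, -0.86 for *Dpt*, 0.37 for *Dpp4* and -0.0071 for *Fabp4*.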

Other observations

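Among the 43 genes at least 2-fold higher in mutant-labelled replicate 1 than in every other library were genes of peripheral nerve, named here after their values were seen. *Nefh*, the heavy neurofilament gene, was at 8.68 CPM against at most 0.761 CPM elsewhere, 11.4-fold over the next library. The light and medium neurofilament genes *Nefl* and *Nefm* were at 54.9 and 45.4 CPM against at most 7.67 and 9.58 CPM. *Prph*, encoding peripherin, a filament of peripheral neurons, was at 24.1 CPM against at most 4.29 CPM, and the receptor gene *Ret* was at 13.5 CPM against at most 3.46 CPM. The neurotrophin receptor gene *Ngfr*, which Schwann cells also express, was at 24.6 CPM against at most 12.2 CPM. Their r with *Clec3b* was 0.58 for *Nefh*, 0.56 for *Nefl*, 0.44 for *Nefm*, 0.62 for *Prph*, 0.73 for *Ret* and 0.71 for *Ngfr*. Of the 15 genes of the neuron list, 2 were highest there, *Nefl* and *Nefm*, both at least 2-fold above every other library. *Tubb3* was 7th of 10 at 34.1 CPM and reached 175 CPM in mutant-labelled replicate 2, whose neuron list summed to 767 CPM against 283 CPM in mutant-labelled replicate 1.

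*Lyve1*, a marker of lymphatic vessels and of some tissue macrophages, was at 24.4 CPM in mutant-labelled replicate 1 against at most 12 CPM. Of the 10 libraries, mutant-labelled replicate 2 had the most genes at least 2-fold above every other library, 349, and mutant-labelled replicate 1 came next with 43.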
